A study of Mus musculus with 3 samples.

Results

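Imprinted genes were followed in single cells of the pituitary intermediate lobe (IL) of mice. The list held 10 genes, Meg3, Rian, Dlk1, Peg3, Ndn, Snrpn, Grb10, Peg10, H19 and Igf2. They were chosen by name and not by a measured value, though with earlier results of these data known. Of these, 9 had a row in at least 1 of the 3 single-cell count tables and 8 had a row in all 3, against 17775 and 15527 genes in the whole series. Rian had no row in any table, and Igf2 had a row only in the S2CK table.

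The study asked how loss of p27, with or without removal of 1 Sox2 allele, altered the cells of the IL, the lobe in which p27-deficient mice form tumours. Each genotype was 1 droplet library of dissociated ILs from 3-month-old mice, so no spread between animals could be measured and no test between genotypes was made. WT mice were Sox9iresCreERT2/+, P27NULL mice were Sox9iresCreERT2/+;p27-/- and S2CK mice were Sox9iresCreERT2/+;Sox2fl/+;p27-/-. All mice, controls included, carried the tamoxifen-inducible Cre at the Sox9 locus, which is active in stem cells (SCs) and not throughout the lobe, and had tamoxifen by mouth at 4 weeks of age by the labels, whereas the text of the study places the induction of Cre at birth. Which of these holds was not settled here, so the age at which Sox2 was lost in S2CK is uncertain. By the study's methods all 3 lines also carried the Rosa26ReYFP/+ reporter and were kept on a mixed background. By the study's methods the WT library pooled 2 males, and each of the others pooled males and females in a number not given there.

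The libraries held 2020 (WT), 4153 (P27NULL) and 3488 (S2CK) cells with 8332285 to 19239147 unique molecular identifiers (UMIs, counts of captured transcripts), and median depths of 2740 to 4907 UMIs per cell. The libraries shared 2 to 4 cell barcodes pairwise. Cdkn1b, the gene that encodes p27, stood at 34.0 counts per 1000000 UMIs (CPM) in WT and 31.3 CPM in P27NULL melanotroph-like cells and at 16.5 CPM in S2CK ones. The 3′ tags of this assay need not fall in the deleted stretch of the gene, so these counts do not check the labels, and P27NULL below means the library so labelled. Sex was read from X- and Y-linked transcripts. A cell with no Xist UMI was read as male, with or without Y-linked UMIs, so cells read as male may include female ones. By this rule all WT cells read as male, 81.1% of P27NULL cells as male, and 93.9% of S2CK cells as female. Genotype, sex and library preparation therefore cannot be told apart in most comparisons below, and values within a sex are given for the members in melanotroph- and SC-like cells.

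An imprinted gene is transcribed mainly or only from the copy inherited from the mother or from the father. Imprinted genes lie in clusters that share a control region methylated in the egg or the sperm, and many of them act on growth, on the placenta and on neuroendocrine cells. Meg3 and Rian are long noncoding RNAs expressed from the maternal copy of the Dlk1-Dio3 cluster, in which Dlk1, a transmembrane protein of the Notch ligand family, is expressed from the paternal copy. Loss of MEG3 is a known feature of human non-functioning pituitary adenomas, and Dlk1 is known from somatotrophs, the growth hormone cells. The counts here do not distinguish the parental copies, so each value below is the sum of both.

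Meg3 lies at chr12:109540996-109571729 on the plus strand of GRCm38, Rian at chr12:109603945-109661716 and Dlk1 at chr12:109452485-109463336. Peg3, a zinc finger protein gene, lies at chr7:6703892-6730462 on the minus strand. Ndn, which encodes the growth-restraining protein necdin, lies at chr7:62348277-62349928, and Snrpn, which encodes a spliceosomal protein, at chr7:59982495-60450177. Both are in the cluster affected in Prader-Willi syndrome. Grb10 (an adaptor that dampens insulin and growth factor signalling) is at chr11:11930499-12037428, Peg10 (a gene derived from a retrotransposon) at chr6:4747306-4760517, H19 (a noncoding RNA) at chr7:142575530-142578146 and Igf2 (a growth factor) at chr7:142650768-142666816. The ends of Meg3 and Rtl1 overlap, as do Snrpn, Snurf and Snhg14, and whether reads were counted by strand was not given in the sources used here, so these genes may share reads.

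The promoters of Meg3 and Peg3 shown are those that held the element named next. Levels of both members ordered the 3 libraries alike in melanotroph-like cells, as described below. Peg10 had the same order of levels but no promoter in the set used. For Peg3 the direction of S2CK against WT depended on the processing. Of the 10 members, 8 had promoters in the RefSeq table (GRCm38.p6), 16 in all, each from 250 bases before to 50 bases after an annotated start. Several motifs were searched on both strands. Among them was the cAMP response element TGACGTCA, a palindrome that CREB-family factors are known to bind. It was in 2 of these 16 windows (12.5%), against 1.79% of all 32851 promoters. They were the window at the 5′ end of Meg3, chr12:109540746-109541045 (plus strand), with the element at bases 194 to 201, and that of Peg3, chr7:6730370-6730669 (minus strand), with the element at bases 73 to 80. Capitals mark the element, and each sequence runs 5′ to 3′ on the strand of its gene.
Meg3: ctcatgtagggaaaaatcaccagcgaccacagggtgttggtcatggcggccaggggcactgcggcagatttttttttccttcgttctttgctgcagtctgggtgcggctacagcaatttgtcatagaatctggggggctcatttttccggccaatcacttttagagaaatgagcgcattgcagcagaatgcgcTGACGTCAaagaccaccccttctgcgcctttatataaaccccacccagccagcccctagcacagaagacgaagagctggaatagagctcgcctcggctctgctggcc
Peg3: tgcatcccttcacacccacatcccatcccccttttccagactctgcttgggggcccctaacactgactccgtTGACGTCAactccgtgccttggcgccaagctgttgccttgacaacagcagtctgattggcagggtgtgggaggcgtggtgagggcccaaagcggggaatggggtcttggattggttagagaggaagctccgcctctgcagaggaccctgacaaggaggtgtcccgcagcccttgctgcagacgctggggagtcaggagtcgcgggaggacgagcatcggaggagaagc
The Meg3 window also held a TATA box (TATAAA, on either strand in 13.6% of all promoters). Both windows held 13 CG dinucleotides, and the median over all promoters was 7. No Dlk1 window held TGACGTCA. None held ATGNATA, a form of the site of the pituitary factor POU1F1, which was in 8.84% of all promoters. The GC box GGGCGG was in 25% of member windows and 35.7% of all promoters, and CCAAT in 25% and 37.4%. TATAAA was in 12.5% and ATGNATA in 6.25% of member windows. TGACGT, a part of the element, was in 18.75% of them and 7.51% of all promoters. The Peg3 element, at chr7:6730590-6730597, also lies inside Usp29, which starts at chr7:6730559 on the opposite strand. A Usp29 promoter held the element too. A match of letters is a description of these windows and not evidence of binding. Whether the element bears on the order of the libraries was not tested.

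Cells were sorted into types by clusters and marker genes. Melanotroph-like cells, the hormone cells of the IL that process Pomc, were the most numerous, with 1280 in WT, 3399 in P27NULL and 2670 in S2CK. SC-like cells numbered 139, 105 and 91, and corticotroph-like cells, which also make Pomc but belong to the anterior lobe, 155, 108 and 78. A group called here by its leading genes, Prl and Gh (prolactin and growth hormone), held 58, 22 and 34 cells. Gonadotroph-, pituicyte-, connective tissue-, endothelial-, macrophage- or microglia- and T or NK cell-like cells made up most of the rest, and a type with fewer than 20 cells in a library is not reported for it. Another 157 P27NULL and 343 S2CK cells with melanotroph markers lay in clusters that could not be named. The S2CK cluster among them had Peg3 in its 10 leading genes.

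Meg3 was the member with the most UMIs, 11671 in WT, 28815 in P27NULL and 22840 in S2CK. Its level in melanotroph-like cells was 1620.5 CPM in WT (exact 95% Poisson interval 1589 to 1653), 1983 in P27NULL (1959 to 2007) and 1189 in S2CK (1172 to 1207). A Meg3 UMI was found in 96.0%, 96.8% and 97.3% of these cells, with a median of 6, 5 and 5 UMIs per cell. Meg3 was thus found in nearly all melanotroph-like cells of each library, and the 3 levels had intervals that did not overlap. After each cell was thinned to 1000 UMIs, to set the depths equal, the shares were 73.9%, 82.1% and 65.3%, in the same order as the CPM. All intervals here cover counting error only. In a sum over cells, fewer cells with a transcript and fewer transcripts per cell cannot be told apart.

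Meg3 had high levels in the other hormone cell types as well. In cells led by Prl and Gh it stood at 1520.3 CPM in WT, 2421 in P27NULL and 1347 in S2CK. In corticotroph-like cells the Meg3 levels were 1290.5, 1519 and 785 CPM, and in gonadotroph-like cells 1058, 1001 and 862 CPM. In WT the intervals of melanotroph-like cells and cells led by Prl and Gh overlapped, and those of corticotroph-like cells (1189 to 1399) and gonadotroph-like cells (955 to 1169) did not. In P27NULL the order, Prl and Gh led, melanotroph-, corticotroph- and gonadotroph-like, had no overlap between neighbours. WT pituicyte-like cells, the glia of the posterior lobe, held Meg3 at 1182 CPM (960 to 1441), which overlapped both of these. In S2CK the gonadotroph- and corticotroph-like intervals overlapped and lay below that of melanotroph-like cells.

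SC-like cells held Meg3 at 371 CPM in WT (322 to 425), 411 in P27NULL (349 to 481) and 307 in S2CK (266 to 353). At least 1 Meg3 UMI was found in 34 of 139, 42 of 105 and 36 of 91 SC-like cells, the median cell had 0, and the highest cell had 21, 45 and 53 UMIs. The Meg3 UMIs of SC-like cells thus lay in a minority of the cells in every library. The share with a UMI was 24.5%, 40.0% and 39.6%, and after thinning it was 19.5%, 20% and 5.49%.

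Pomc transcripts from broken melanotrophs were assumed to reach the droplets of other cells as free RNA. A transcript brought in the same way was assumed to keep its ratio to Pomc, and neither assumption was tested. The Pomc level in P27NULL was 50388 CPM in macrophage- or microglia-like and 12244 CPM in SC-like cells, so it differed between types. In macrophage- or microglia-like cells of P27NULL, Meg3 stood at 776 CPM, against 774 foreseen from their Pomc level. The values for the same cells were 267 against 337 CPM in S2CK and 189 against 96.0 in WT. Meg3 in P27NULL and S2CK macrophages was thus not above what free RNA would give, and in WT it was above (135 to 258). Connective tissue-like cells, at 274, 652 and 504 CPM, had in no library a Meg3 interval above the foreseen 204, 729 and 430 CPM. Endothelial-like cells held Meg3 above the foreseen level, at 173 against 41.8 CPM in WT and at 535 against 248 CPM in S2CK. T or NK cell-like cells did too, at 242 against 94.3 CPM in WT and 103 against 39.2 CPM in S2CK, on 12 and 7 UMIs. In WT the highest cell held 9 of the 40 Meg3 UMIs of macrophages and 9 of the 21 of endothelial-like cells. Of the 12 in WT T or NK cell-like cells 9 lay in 1 cell, and of the 63 in S2CK endothelial-like cells 21 did. The UMIs are thus not independent draws, and these intervals are too narrow. Meg3 was above the foreseen level in some cell types that make no hormone and not in others. Whether mixed droplets brought it was not tested, and 1 WT macrophage- or microglia-like droplet held 1531 Gh UMIs.
In SC-like cells the Meg3 interval lay above the foreseen level in each library, 264, 188 and 169 CPM. The same held for Peg3 (87.3, 134 and 79.0 CPM, against 42.4, 36.3 and 34.5 foreseen) and for Ndn (71.3, 68.5 and 44.9 CPM, against 25.7, 19.3 and 22.7). Snrpn in SC-like cells was above the foreseen level only in WT, at 44.6 against 18.6 CPM.

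**Figure D1:**
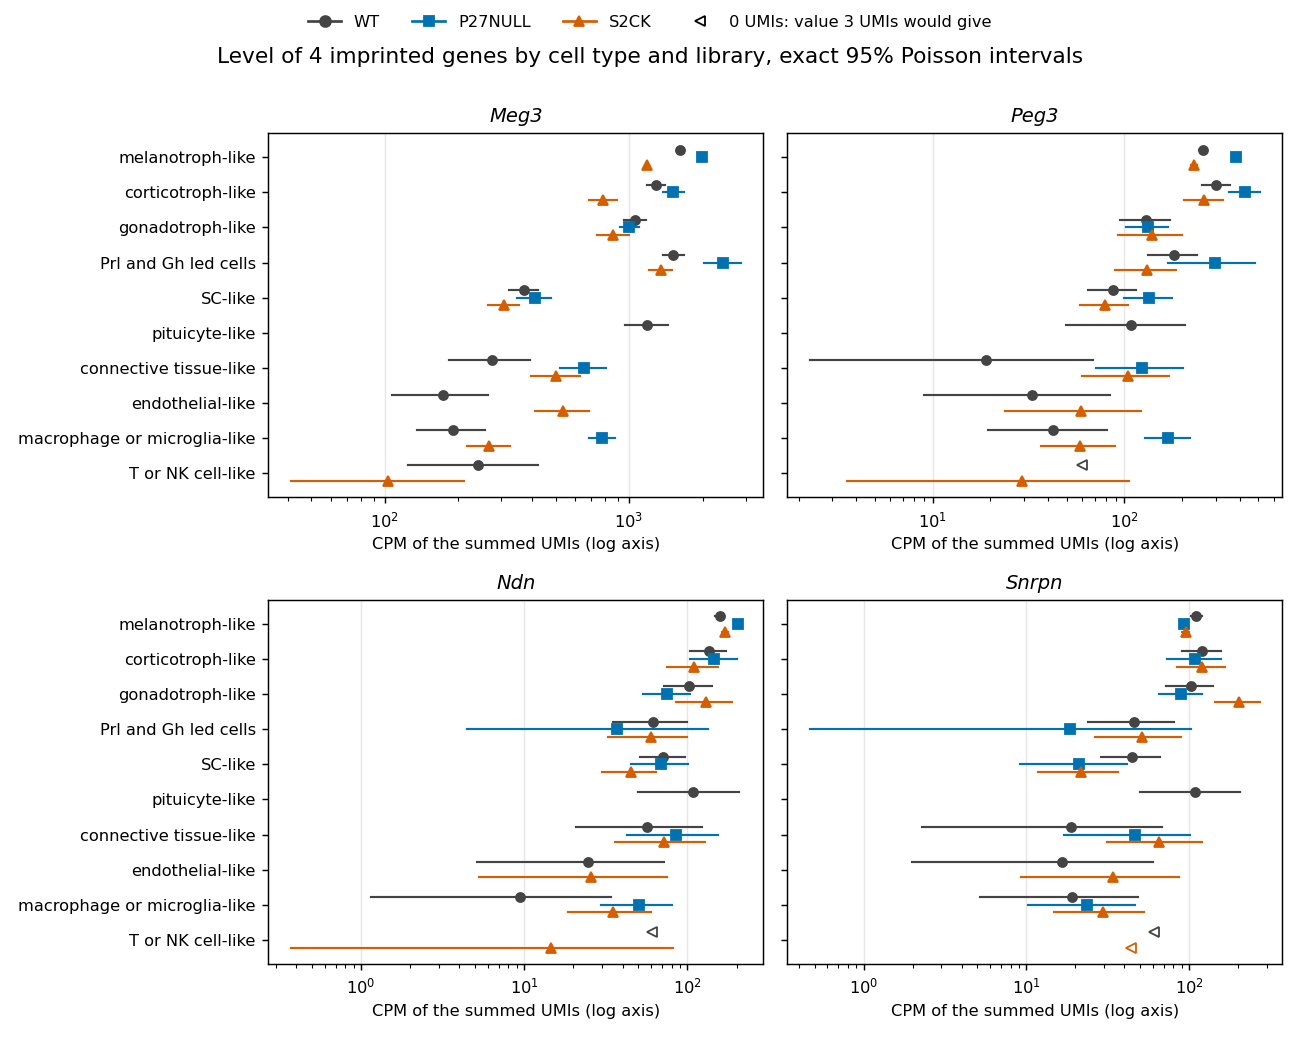
Levels of Meg3, Peg3, Ndn and Snrpn, in CPM of the summed UMIs on a log axis, by cell type and library, with exact 95% Poisson intervals as bars. Each gene is lower in SC-like than in melanotroph-like cells of the same library, and Meg3 in WT lies at 1620.5 CPM in melanotroph-like and 371 CPM in SC-like cells. An open triangle marks a sum with 0 UMIs, drawn at the level that 3 UMIs would give.

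Within each library, Meg3 was higher in melanotroph-like than in SC-like cells by a log2 ratio of 2.13 in WT (95% counting interval 1.93 to 2.33), 2.27 in P27NULL (2.04 to 2.51) and 1.95 in S2CK (1.75 to 2.16). Peg3 was higher by 1.56, 1.51 and 1.55 on the log2 scale, nearly the same value in each library. Ndn was higher by 1.14, 1.58 and 1.92, and Snrpn by 1.31, 2.14 and 2.13. For these 4 members every interval left out 0 in every library.
Of the 10 members, 6 had the 10 UMIs over both sums that a ratio required. In WT, 6 of 6 were higher by 2-fold or more in melanotroph-like cells, where 11.8% of the 12683 genes tested were. In P27NULL 4 of 6 were, against 11% of all genes, and in S2CK 5 of 6 were, against 10.9%, with Dlk1 lower by -4.41. The median log2 ratio of the members was 1.44, 1.54 and 1.85, and that of all genes was -0.22, -0.34 and -0.31, with a gene at 0 in 1 of the sums set at the bound that 3 UMIs give. Counted by an interval above 0 the members numbered 4 of 6 in each library, with 9.92%, 9.11% and 11.2% of all genes.
The ratios of the other 2 members were not resolved in most libraries. Peg10 rested on 1, 3 and 1 UMIs in SC-like cells, and its intervals included 0. Dlk1 had 4, 0 and 18 UMIs in SC-like cells, and the 18 of S2CK came from 1 cell of 29147 UMIs that also held 98 Prl and 24 Gh UMIs.

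**Figure D2:**
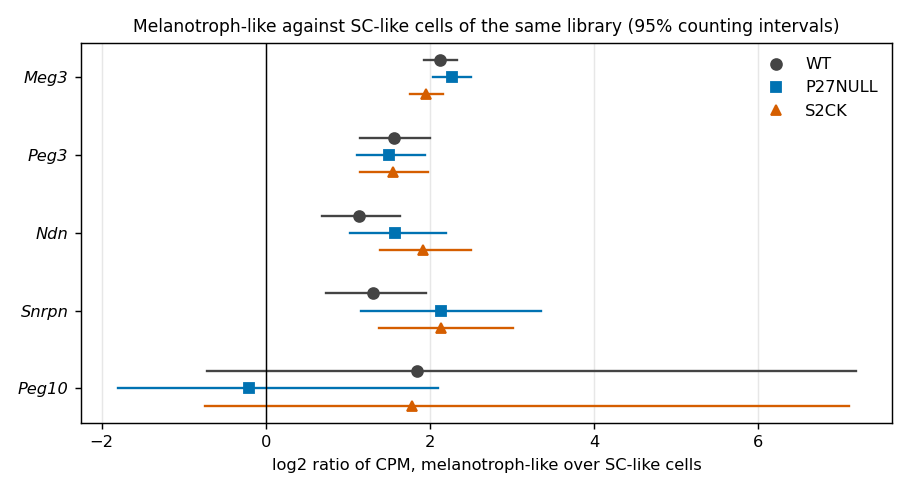
Log2 ratio of CPM between melanotroph-like and SC-like cells of the same library for 5 members, with 95% counting intervals as bars. Meg3, Peg3, Ndn and Snrpn lie above 0 in all 3 libraries, and the Peg10 intervals cross 0.

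The study compared genotypes. Between libraries, melanotroph-like cells of P27NULL held more Meg3, Peg3 and Ndn and less Snrpn and Dlk1 than those of WT, and those of S2CK held less Meg3, Peg3, Ndn and Dlk1 than those of P27NULL. The 3 contrasts share libraries and are not independent of each other. Among the 6 members tested, 1 was past 2-fold in each contrast, Dlk1, which was lower in the mutant against WT and in S2CK against P27NULL. Genes lower by 2-fold or more made up 2.35% of all genes in P27NULL against WT, 6.34% in S2CK against P27NULL and 4.77% in S2CK against WT. Past 2-fold in either direction were 6.85%, 8.82% and 8.53% of all genes.

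Meg3 was higher in P27NULL than in WT melanotroph-like cells by 0.29 on the log2 scale (0.26 to 0.32). It was lower in S2CK than in P27NULL by -0.74 (-0.76 to -0.71) and lower in S2CK than in WT by -0.45 (-0.48 to -0.41). The median over all genes was 0.10, -0.19 and -0.07 in the same contrasts, so Meg3 was further from 0 than the median gene in each. With edgeR's TMM scaling, which moved the S2CK against P27NULL median of all genes to -0.03, the Meg3 log2 ratios were 0.21, -0.58 and -0.37.
Within male cells Meg3 was higher in P27NULL than in WT by 0.32, and within female cells lower in S2CK than in P27NULL by -0.61. With the unnamed clusters that had melanotroph markers counted as melanotroph-like, a choice made after seeing the data, the S2CK against P27NULL ratio was -0.64. The direction was thus the same under each of these settings.
Between clusters of melanotroph-like cells the Meg3 level ran from 1533 to 1717 CPM over 5 clusters in WT, from 1602 to 2191 over 7 in P27NULL and from 1075 to 1257 over 8 in S2CK. No S2CK cluster of named melanotroph-like cells reached the lowest WT cluster, but the 343 unnamed S2CK cells with melanotroph markers stood at 1680.1 CPM Meg3 (1631 to 1730), within the WT range. The 157 unnamed P27NULL cells stood at 1817 CPM.

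Peg3 stood at 258 CPM in WT (245 to 271), 382 in P27NULL (372 to 393) and 231 in S2CK (223 to 239) melanotroph-like cells, with a UMI in 58.4%, 59.8% and 64.0% of cells and, after thinning, in 21.2%, 27.9% and 19.4%. Its log2 ratio was 0.57 for P27NULL against WT (0.49 to 0.65) and -0.73 for S2CK against P27NULL (-0.79 to -0.66). Within male cells the P27NULL against WT ratio of Peg3 was 0.62 (0.53 to 0.70), and within female cells the S2CK against P27NULL ratio was -0.50 (-0.60 to -0.39). Peg3 and Meg3 thus ordered the libraries alike, P27NULL above WT above S2CK. The S2CK against WT ratio of Peg3 was small, at -0.16 (-0.25 to -0.07), and was 0.0031 with the unnamed melanotroph clusters included, where Peg3 stood at 408 CPM in S2CK and was among the genes that led the cluster. Usp29, which starts beside Peg3 on the opposite strand and is no member, stood at 86.2, 102 and 56.9 CPM in melanotroph-like cells.

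Ndn stood at 157, 205 and 170.0 CPM in melanotroph-like cells. Its log2 ratio was 0.38 for P27NULL against WT (0.28 to 0.49) and -0.27 for S2CK against P27NULL (-0.35 to -0.19). Within female cells the latter was 0.09 (-0.05 to 0.24), so the lower Ndn of S2CK against P27NULL was not seen within a sex. P27NULL female cells held less Ndn than P27NULL male cells, by -0.44 on the log2 scale.
Snrpn stood at 111, 93.0 and 95.2 CPM. It was lower in P27NULL than in WT by -0.25 (-0.39 to -0.11), the opposite direction to its neighbour Ndn in the same cluster of genes. The S2CK against P27NULL ratio of Snrpn was 0.03 (-0.08 to 0.15), and with TMM scaling 0.19 (0.08 to 0.31). Within a sex the Snrpn ratios were -0.22 (-0.37 to -0.08) for P27NULL against WT and 0.12 (-0.07 to 0.32) for S2CK against P27NULL.
Peg10 had 6.41, 6.85 and 5.32 CPM in melanotroph-like cells, with a UMI in 2.18% to 2.89% of them. Its 3 ratios, 0.10, -0.37 and -0.27, had intervals that included 0, so a difference was not detectable with both sexes together. Within female cells Peg10 was lower in S2CK than in P27NULL by -0.95 (-1.58 to -0.29), on 77 and 30 UMIs, and within male cells its P27NULL against WT ratio was -0.17 (-0.78 to 0.46). Between the sexes of P27NULL, Peg10 was higher in female than in male cells by 0.88 (0.20 to 1.54).

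Counted by an interval that left out 0, members in melanotroph-like cells numbered 3 higher and 2 lower of 6 in P27NULL against WT, where 19% of all genes were higher and 7.86% lower. In S2CK against P27NULL 4 of 6 were lower and 0 higher, with 35.2% and 13.6% of all genes. In S2CK against WT 4 were lower and 1 higher, with 20.2% and 13.3%. A deeply counted gene such as Meg3 leaves out 0 at smaller ratios than a gene of few UMIs.

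**Figure D3:**
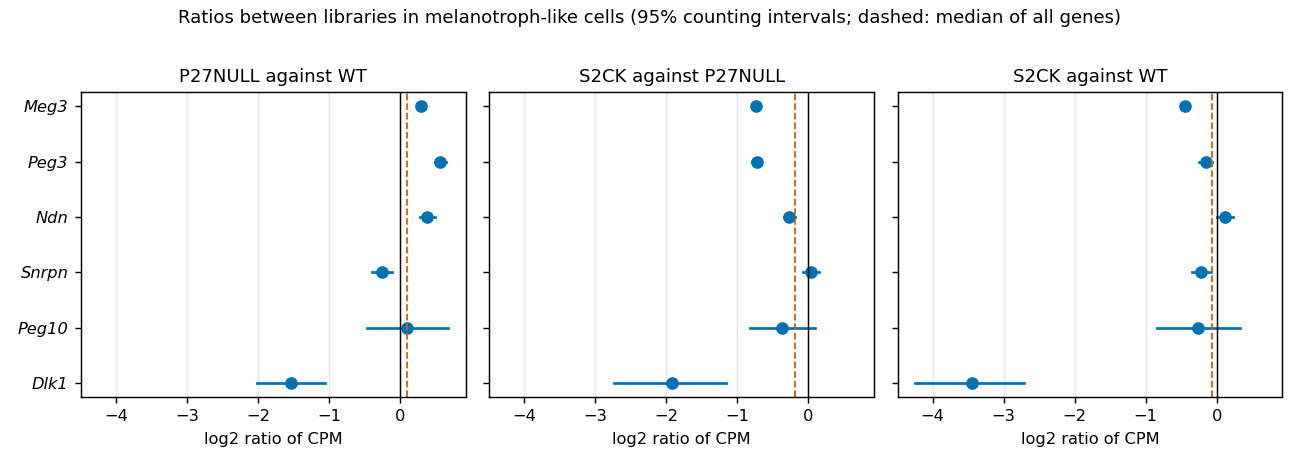
Log2 ratio of CPM between libraries in melanotroph-like cells for the 6 members tested, with 95% counting intervals as bars (hidden by the points where narrow) and the median of all genes as a dashed line. Meg3 and Peg3 lie at 0.29 and 0.57 in P27NULL against WT and at -0.74 and -0.73 in S2CK against P27NULL, and Dlk1 lies below 0 in each panel.

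In SC-like cells, 4 members could be compared in P27NULL against WT and 5 in the other contrasts. Past 2-fold were Snrpn in P27NULL against WT (-1.08, interval -2.44 to 0.11), Dlk1 in S2CK against P27NULL, and Dlk1 and Snrpn (-1.04, -2.10 to -0.04) in S2CK against WT, in contrasts where 13%, 18.0% and 16.3% of all genes were past 2-fold. The Dlk1 values rest on the 1 cell described above. Meg3 in SC-like cells was lower in S2CK than in P27NULL by -0.42 (-0.73 to -0.11), and its other ratios, 0.15 (-0.16 to 0.46) and -0.27 (-0.56 to 0.02), were not resolved. The highest cell held 45 of the 156 P27NULL and 53 of the 198 S2CK Meg3 UMIs, so these intervals are too narrow. Free RNA alone was foreseen to give 188 of the 411 CPM in P27NULL and 169 of the 307 CPM in S2CK. Snrpn was above its foreseen level only in WT. Peg3 was higher in P27NULL than in WT by 0.62 (0.03 to 1.22) and lower in S2CK than in P27NULL by -0.77 (-1.36 to -0.18). These Peg3 values rest on 49, 51 and 51 UMIs and were not resolved within a sex, at 0.61 (-0.01 to 1.22) for P27NULL against WT in male cells and -0.81 (-1.96 to 0.57) for S2CK against P27NULL in female cells. The Meg3 ratio of S2CK against P27NULL was not resolved within female SC-like cells either, at -0.31 (-0.99 to 0.45), where P27NULL had 19 Meg3 UMIs. Snrpn in SC-like cells was -0.88 (-2.24 to 0.31) for P27NULL against WT in male cells. Ndn in SC-like cells was 0.03 (-0.77 to 0.79) in that contrast and 0.18 (-1.80 to 3.29) for S2CK against P27NULL in female cells.

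In corticotroph-like cells Meg3 was again higher in P27NULL than in WT, by 0.24 (0.05 to 0.42), and lower in S2CK than in P27NULL, by -0.95 (-1.19 to -0.72). Peg3 in these cells stood at 301, 424 and 260.5 CPM, with ratios of 0.49 (0.12 to 0.86) and -0.70 (-1.14 to -0.27). In gonadotroph-like cells Peg3 stood at 129.5, 132 and 139 CPM, with intervals that overlapped, and the Meg3 ratios were -0.08 (-0.28 to 0.12) and -0.22 (-0.47 to 0.03). Whether the ratios differ between the cell types was not tested, since each library gives 1 value per type.
Snrpn in gonadotroph-like cells stood at 102, 89.6 and 201 CPM, higher in S2CK than in P27NULL by 1.17 (0.52 to 1.81), on 42 UMIs in 37 S2CK cells. Of 5 members tested, Snrpn and Dlk1 were past 2-fold in that contrast, 0 were in P27NULL against WT and Dlk1 was in S2CK against WT, with 21.9%, 25% and 23.5% of all genes. Dlk1 rested on 17, 13 and 1 UMIs in gonadotroph-like cells. The 1 of S2CK lay in a droplet with 1% or more of its UMIs from Gh and Prl. After thinning to 1000 UMIs per cell, a Snrpn UMI was found in 8%, 4.55% and 10.8% of gonadotroph-like cells.

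Dlk1 had a pattern of its own among the members. It had 654 UMIs in WT, 233 in P27NULL and 243 in S2CK, and most of those in WT and S2CK lay in the cells led by Prl and Gh, which made up 2.87% of the WT cells and held 63.0% of its Dlk1 UMIs. In these cells Dlk1 stood at 1582 CPM in WT (1433 to 1742), 1996 in P27NULL (1637 to 2409.5) and 867 in S2CK (752 to 994). A Dlk1 UMI was found in 55 of 58, 21 of 22 and 33 of 34 of them, a median of 6, 3 and 5 UMIs per cell. Nearly all cells of this group thus held Dlk1 in each library.

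Corticotroph-like cells were the next highest in WT, at 229 CPM (187 to 277), with a Dlk1 UMI in 31 of 155 cells. In P27NULL corticotroph-like cells Dlk1 stood at 128 CPM (88.3 to 178) with a UMI in 15 of 108 cells, and in S2CK at 3.43 CPM (0.0868 to 19.1) with 1 UMI in 1 of 78 cells. The shares were 20%, 13.9% and 1.28%, and the median S2CK corticotroph-like cell was the deepest of the 3 libraries. On the log2 scale Dlk1 was lower in S2CK than in WT by -6.06 (-11.4 to -3.55) and than in P27NULL by -5.22 (-10.6 to -2.64), ratios that rest on the 1 UMI. Dlk1 was the only member past 2-fold in these contrasts, with 15.7% and 17.6% of all genes, and in P27NULL against WT 0 of 5 members were, with 14.2%. The Gh and Prl level of the corticotroph-like cells would bring 0.476, 0.181 and 0.0403 Dlk1 UMIs as free RNA, against the 105, 34 and 1 counted.

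In gonadotroph-like cells Dlk1 was found in 5 of 52, 3 of 132 and 1 of 37 cells. Melanotroph-like cells, the bulk of each library, had a Dlk1 UMI in 19 of 1280 WT cells, 15 of 3399 P27NULL cells and 2 of 2670 S2CK cells, or 1.48%, 0.441% and 0.0749%. Their levels were 14.3, 4.95 and 1.31 CPM, with log2 ratios of -1.53 (-2.02 to -1.05) for P27NULL against WT and -1.91 (-2.73 to -1.16) for S2CK against P27NULL. Of the 19 positive WT cells 8 held 5 or more UMIs, and 1 held 18, so the UMIs are not independent draws and these intervals are too narrow. Within male cells the P27NULL against WT ratio of Dlk1 was -1.76, and within female cells the S2CK against P27NULL ratio was -2.52, on 19 and 22 UMIs.
Some melanotroph-like droplets held growth hormone or prolactin, 3 in WT, 6 in P27NULL and 3 in S2CK with 1% or more of their UMIs from Gh and Prl. Without them, a choice made after seeing the data, Dlk1 was at 11.3, 4.27 and 1.31 CPM in 18, 11 and 2 cells, and the log2 ratios were -1.41 and -1.70. The 19 WT melanotroph-like cells with Dlk1 had the 7 melanotroph markers at 4514 CPM (4143 to 4909). The other WT melanotroph-like cells had them at 5478 CPM (5418 to 5537). The 19 cells had 5 corticotroph markers at 364 CPM (264 to 488), against 177 CPM (166 to 188) in the others. In P27NULL the 15 cells with Dlk1 had the corticotroph markers at 49.7 CPM (10.2 to 145), against 94.1 CPM in the others. Whether some of these cells are corticotroph-like or mixed droplets was not tested. With all 3 libraries clustered together, the S2CK against P27NULL ratio was 0.63 (-0.68 to 2.13), so the direction between these libraries depends on which few cells are called melanotroph-like. Within a library Dlk1 was higher in cells led by Prl and Gh than in melanotroph-like cells by 6.79, 8.66 and 9.37 on the log2 scale.

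**Figure D4:**
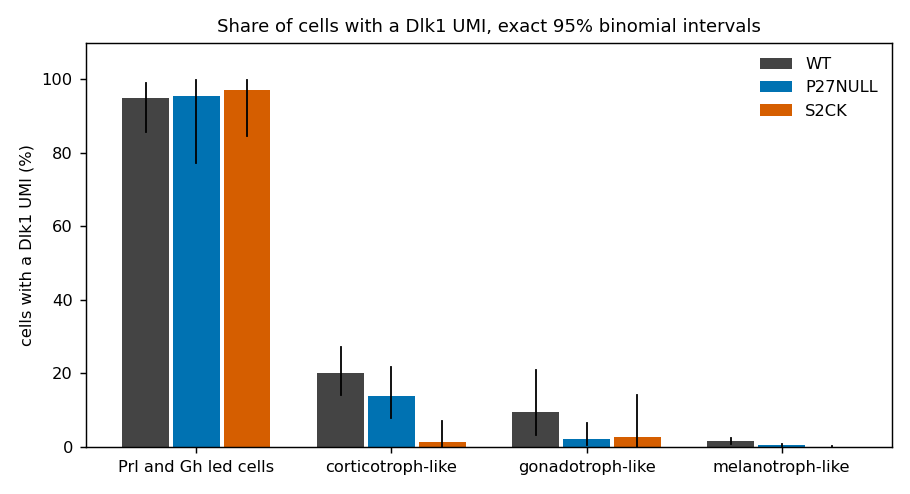
Share of cells with at least 1 Dlk1 UMI, in percent, by cell type and library, with exact 95% binomial (Clopper-Pearson) intervals as lines. The share is 94.8% to 97.1% in cells led by Prl and Gh, 20%, 13.9% and 1.28% in corticotroph-like cells and under 2% in melanotroph-like cells.

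Grb10, H19 and Igf2 were at the edge of detection. Grb10 had 21, 15 and 20 UMIs in all. It had 0 UMIs in the 1280 WT melanotroph-like cells, where 3 UMIs would be 0.493 CPM, and 5 and 3 UMIs in those of P27NULL and S2CK. In each library more of its UMIs lay in cells that make no hormone than in hormone cells. Melanotroph-like cells, 81.8% of the P27NULL cells, held 33.3% of the Grb10 UMIs of that library. Connective tissue-like cells held Grb10 at 56.6 CPM in WT (20.8 to 123), 23.3 in P27NULL (4.80 to 68.1) and 26.2 in S2CK (7.14 to 67.1), on 6, 3 and 4 UMIs. Endothelial-like cells held it at 41.2 CPM in WT and 50.9 CPM in S2CK, on 5 and 6 UMIs. In SC-like cells Grb10 was at 5.35, 7.91 and 9.30 CPM, on 3, 3 and 6 UMIs.
H19 had 4, 5 and 1 UMIs, of which 3 in WT and 4 in P27NULL were in connective tissue-like cells. Igf2, a fetal growth factor known to be switched off in most tissues of adult mice, had 1 UMI, in an S2CK melanotroph-like cell. Peg10 was spread over the hormone cells, with 51, 102 and 92 UMIs, and stood at 15.3, 7.5 and 20.6 CPM in corticotroph-like cells on 7, 2 and 6 UMIs.

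Likeness of pattern was taken as Pearson's r of log2(CPM + 1) over the 26 sums of library and cell type, which share libraries and depth, so it is a description with no test. Most like Meg3, of 12170 genes, were 9330020H09Rik (r = 0.908), Map7d2 (0.907) and Pcsk1n (0.902), the last a secretory granule protein of neuroendocrine cells. Most like Dlk1 were Gh (0.790), Mroh7 (0.762) and Nnat (0.747). Nnat is itself imprinted, and stood at 8734, 8852 and 3021 CPM in cells led by Prl and Gh and at 22.0, 16.9 and 5.25 CPM in melanotroph-like cells. Among the members, Peg3 and Ndn had r = 0.885 and Ndn and Snrpn 0.864, while Meg3 and Dlk1, of the same cluster, had 0.499.

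A further list of 62 imprinted genes was taken from textbook knowledge, of which 46 had a row in all 3 tables. In melanotroph-like cells 9 of the 40 tested were higher and 5 lower in P27NULL than in WT by an interval that left out 0, beside 19% and 7.86% of all genes, with a median of 0.07. In S2CK against P27NULL 7 of 40 were higher and 19 lower, beside 13.6% and 35.2% of all genes, with a median of -0.22. In S2CK against WT 5 of 38 were higher and 12 lower, beside 13.3% and 20.2%, with a median of -0.11. Past 2-fold in either direction were 3 of 40, 6 of 40 and 6 of 38, beside 6.85%, 8.82% and 8.53% of all genes. These medians lie close to those of all genes, 0.10, -0.19 and -0.07.
By CPM in WT melanotroph-like cells the list was led by Gnas, which encodes the stimulatory G protein subunit that raises cAMP, at 4404, 5494 and 5188 CPM. After it came Cd81 (466, 428 and 449 CPM), Nap1l5 (458, 404 and 421), Mest (264, 209.5 and 111) and Impact (131, 164 and 138). Kcnq1ot1 (89.7, 113 and 79.8 CPM), Usp29, H13 (80.1, 77.7 and 77.6), Nap1l4 (74.1, 70.5 and 66.8) and Ube3a (73.4, 70.0 and 61.2) completed the 10 highest.
Past 2-fold with an interval that left out 0 in melanotroph-like cells were Mest in S2CK against WT (-1.26, -1.36 to -1.16) and Cdkn1c in the same contrast (1.91, 1.22 to 2.68). Cdkn1c encodes p57, the cell cycle inhibitor related to p27, and stood at 3.12, 6.17 and 11.7 CPM in melanotroph-like and at 94.5, 161 and 240.2 CPM in SC-like cells, where its S2CK against WT ratio was 1.35 (0.89 to 1.83). Nnat was lower in S2CK than in P27NULL by -1.69 and than in WT by -2.07, Klf14 by -1.07 and -1.18, and Slc22a2 was lower than in WT by -2.73 in P27NULL and by -2.52 in S2CK. Ddc (-1.43) and Kcnk9 (-3.31, on 1 and 9 UMIs) were lower in S2CK than in P27NULL.
In SC-like cells 3, 6 and 5 of the 31 tested were past 2-fold in these contrasts, beside 13%, 18.0% and 16.3% of all genes, and those named here had an interval that left out 0. Nap1l5 (-1.41) and Commd1 (-1.24) were lower in P27NULL than in WT. In S2CK against P27NULL Commd1 was higher (1.26), and Mcts2 (-1.44) and Copg2 (-1.50) were lower. In S2CK against WT Ppp1r9a (-1.28) and Qpct (-1.16) were lower. Each of these SC-like ratios rests on at most 55 UMIs in a library.
The list holds the other transcripts of the Meg3 cluster that had a row. Mirg, a noncoding RNA downstream of Rian, stood at 19.5, 25 and 15.1 CPM in melanotroph-like cells, the same order of libraries as Meg3. Rtl1, a gene of retrotransposon origin, had 8, 3 and 6 UMIs in all.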

How the data were processed

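Single cells of 1 dissected IL library per genotype were captured with droplet 3′ chemistry. The deposited values are raw counts: per the labels and methods, the authors made them with Cell Ranger 3.0.2 (STAR 2.5.1b) on GRCm38 and used Seurat 3 in R 3.6.0, and the deposited cells had at most 10% mitochondrial UMIs. The lowest depth of a cell was 502 UMIs in WT and 1002 to 1005 in the others. No value column of the tables was left unused.

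From these counts, cells were log-normalised, clustered with scanpy 1.11.5 and igraph 0.11.9 in Python 3.11.15 (2000 variable genes, 20 components, 20 neighbours, Leiden resolution 1) and named from fixed marker lists, with at least 3 markers detected. Melanotroph- and SC-like cells came from the clusters of each library, other types from the 3 libraries together. Scrublet called 11 of 9661 cells as doublets, too few to have worked, so no cell was removed. UMIs were summed per library and type, and given as CPM with exact Poisson intervals, as shares with Clopper-Pearson intervals, and as log2 ratios with exact conditional intervals (95% each), for genes with at least 10 UMIs over both sums. The 2-fold threshold and intervals are not tests between genotypes, since each has 1 library. A count of 0 allows up to 3 UMIs, and a ratio against 0 is a bound, which counts as past 2-fold only in the direction that it bounds. The intervals were tested on simulated Poisson counts, the model that they assume. This does not cover UMIs that lie many to a cell.

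The level foreseen from free RNA was the Pomc level of a cell type times the ratio of a gene to Pomc over the library. Likeness of pattern used genes with at least 100 UMIs. Named beside the members were the other imprinted genes past 2-fold with an interval that left out 0 in melanotroph- or SC-like cells, the 10 highest in WT melanotroph-like cells, and the 3 genes most like Meg3 and Dlk1. The members and lists were chosen with earlier results of these data known. Alternatives were joint clustering, Leiden resolution 2, study markers, TMM scaling (edgeR 4.0.16 in R 4.3.3), another total, thinning, other cell filters, no UMI minimum and values within a sex.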

Additional observations from a re-analysis of the deposited data

How the results depend on the processing

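No paired analysis was possible because each genotype was 1 library, and for the same reason no replicate could be left out. The Meg3 ratio in melanotroph-like cells kept its direction in all 3 contrasts under every alternative run. In the order P27NULL against WT, S2CK against P27NULL and S2CK against WT it was 0.21, -0.58 and -0.37 with TMM scaling and 0.19, -0.60 and -0.41 with a total that leaves out Pomc, mitochondrial and ribosomal protein genes. In the last 2 of these contrasts it was -0.63 and -0.32 with joint clustering, -0.61 and -0.33 at Leiden resolution 2, and -0.64 and -0.36 with the unnamed melanotroph clusters included (chosen after seeing the data). Thinned to 1000 UMIs per cell it was 0.37 in P27NULL against WT and -0.36 in S2CK against WT, and within a sex it was -0.61 in S2CK against P27NULL. S2CK against WT was not run within a sex. All WT cells and 6.14% of S2CK cells read as male.

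The number of members past 2-fold in melanotroph-like cells, 1 in each contrast, became 0 in S2CK against P27NULL with joint clustering, and 2 in P27NULL against WT and in S2CK against WT with no minimum of UMIs. In SC-like cells the number in P27NULL against WT, 1, became 0 with joint clustering, at Leiden resolution 2, thinned, with likely doublets left out and within a sex, and 2 with no minimum. In S2CK against P27NULL it went from 1 to 2 thinned, with likely doublets left out and with no minimum, and to 0 within a sex, where Snrpn and Dlk1 had 0 UMIs in P27NULL and no ratio. In S2CK against WT it went from 2 to 1 at Leiden resolution 2, with TMM and with the other total. The numbers past 2-fold in either direction in melanotroph-like against SC-like cells stayed within 1.5 times under every alternative but thinning. There that of S2CK, 5 higher and Dlk1 lower, went from 6 to 3.

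Of the ratios of other single members, these changed sign. Dlk1 in S2CK against P27NULL was 0.63 in melanotroph-like cells with joint clustering. Peg3 in S2CK against WT melanotroph-like cells was 0.054 with joint clustering, 0.032 at Leiden resolution 2 and 0.0031 with the unnamed clusters included. Ndn was -0.13 in S2CK against WT when thinned and 0.094 in S2CK against P27NULL within a sex. The cause was not tested. A further 53 single-gene values moved by more than their counting interval, 23 of them by thinning, and 454 did not. Study markers, a minimum of 1000 UMIs per cell and leaving out droplets with Gh and Prl (chosen after seeing the data) moved none. With 8 to 25 Snrpn UMIs and 0 to 18 Dlk1 UMIs in the SC-like cells of a library, differences of these members between SC-like cells are at the limit of the depth.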
